A study of Homo sapiens with 32 samples.

Results

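C7orf49 and TMEM140 are a pair of genes on opposite strands of human chromosome 7 whose exons run into each other. They were 2 of the 57773 genes in the count table, and they were selected on measured values of these same libraries, namely low levels in the uninduced construct lines against the parental line and a return under tamoxifen. C7orf49 (also named CYREN) fit that description and TMEM140 did so only slightly: C7orf49 stood at 0.380 to 0.419 times the parental vehicle level in the vehicle libraries of the construct lines and was 1.91- to 3.07-fold higher there under tamoxifen. TMEM140 stood at 0.810 to 0.839 times the parental level in the same vehicle libraries and at 1.08 and 1.05 times its vehicle level under tamoxifen in the neutral and repressive lines, while in the activating line the direction depended on the scaling. In comparisons that were not themselves used in the selection, C7orf49 under tamoxifen was lower in the repressive and activating lines than in the parental line. No difference was detected in the neutral line. The construct tamoxifen libraries did enter the selection, through the return under tamoxifen, so these comparisons are not independent of it.

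C7orf49 encodes a small protein that binds the Ku heterodimer and regulates non-homologous end joining, the pathway that rejoins broken DNA ends without a template. TMEM140 encodes a predicted multi-pass membrane protein and is counted among the interferon response genes, which are switched on together by interferon. Genes on opposite strands whose exons overlap, as these do, can both contribute reads to the stretch they share, and only a strand-specific count can assign such reads.

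The study measured RNA by sequencing in LNCaP, an androgen-sensitive human prostate cancer cell line. The parental line and 3 stable lines were each given 2.5 µM tamoxifen or vehicle (EtOH) for 48 h, with 4 replicates in each of the 8 groups, 32 libraries in all. Each stable line carried a MACC construct, a fusion of the androgen receptor DNA-binding domain to ERT2, a mutant estrogen receptor domain that lets tamoxifen bring the protein into the nucleus, with a 3X FLAG tag. The neutral line carried the tag alone, the repressive line also KRAB, a repressor domain, and the activating line also VP64, an activator domain. The constructs were delivered by lentivirus from a PGK vector and the lines were kept in Blasticidin, which the labels do not list for the parental cells, so construct, integration and selection cannot be told apart in a comparison with the parental line. Whether a line descends from 1 clone is not given in the sources used here.

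Library totals ran from 454982 to 1164808 counts with a median of 669922, and neutral tamoxifen replicate 1 was the deepest. Counts on ESR1, whose sequence the ERT2 domain holds, were 0 to 2 in parental libraries and 66 to 159 in construct libraries, and ZNF10, which holds a KRAB domain, had 11 to 20 counts in the repressive line and at most 1 elsewhere. These counts tell the construct lines from the parental line and the repressive line from the others, but do not check the neutral against the activating label. Of 9 luminal prostate markers none was at 0 in all libraries, but only HOXB13 and KRT8 had 10 or more counts in every library and KLK3 had 3 to 59. Of 9 markers of other cells, TP63, COL1A2 and PTPRC were at 0 throughout and the highest mean was 6.09 counts (KRT5). Genes that have an exon opposite an exon of another gene took 80.9% of all counts while making up 23.0% of the annotated genes. The kit was stranded and the strand setting of the counting is not given in the sources used here. Counts on C7orf49, TMEM140 and every other gene with an opposite exon are thus uncertain as to the strand the RNA came from. A count or change given under the name of such a gene may belong to RNA of the gene opposite it. Low counts on any gene, the luminal markers included, do not show low expression. Which strand was counted was not tested. In bulk samples, fewer cells of a type and less RNA per cell cannot be told apart.

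On GRCh37, C7orf49 (ENSG00000122783) lies on the minus strand at chr7:134777115-134855547 and TMEM140 (ENSG00000146859) on the plus strand at chr7:134832824-134850967, so the whole of TMEM140 sits inside the span of C7orf49. The exons of C7orf49 add up to 5321 bases and those of TMEM140 to 2313. They overlap over 434 bases at chr7:134850534-134850967, within the last exon of TMEM140, and over 92 bases at chr7:134832824-134832915, within the first exon of TMEM140. The 526 shared bases were 9.89% of the exonic length of C7orf49 and 22.7% of that of TMEM140. A further gene on the plus strand, RP11-134L10.1 (chr7:134853155-134854299), had 711 of its 1145 exonic bases opposite C7orf49 exons but none opposite TMEM140.

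**Figure D1:**
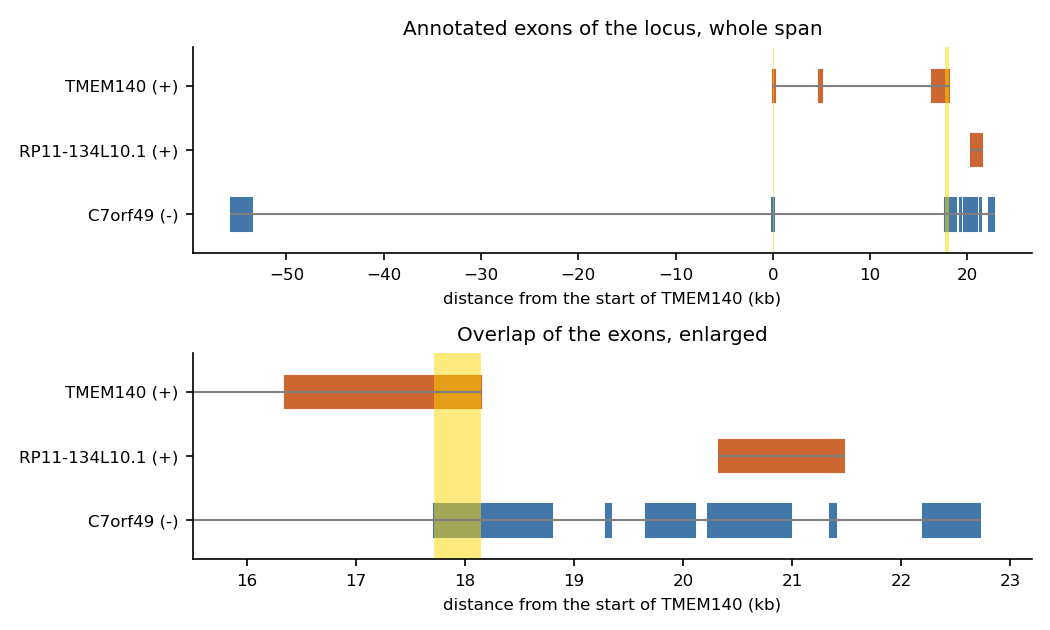
Annotated exons (boxes) of TMEM140, RP11-134L10.1 and C7orf49, with plus-strand genes in orange, minus-strand genes in blue and positions in kb from the start of TMEM140; yellow marks stretches that are exonic in both TMEM140 and C7orf49. The upper panel spans the locus and the lower panel enlarges the 434-base overlap.

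The starts of the genes differ in base composition and in the motifs near them. The 100 bases before each annotated start are printed from the GRCh37 genome, 5′ to 3′ on the strand of the gene, because they show the motifs for the androgen receptor domain and for interferon factors that bear on the study and on TMEM140. Capitals mark matches to AGAACA, the half-site of the androgen response element, and to GAAA, any 2 bases, GAAA, the core of the interferon-stimulated response element, searched on both strands.
TMEM140, chr7:134832724-134832823, plus strand: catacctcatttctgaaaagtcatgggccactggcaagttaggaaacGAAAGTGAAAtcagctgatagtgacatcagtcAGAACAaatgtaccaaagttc
C7orf49, chr7:134855548-134855647, minus strand: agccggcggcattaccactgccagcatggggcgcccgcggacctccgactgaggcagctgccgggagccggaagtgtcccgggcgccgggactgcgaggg
The TMEM140 stretch had 41.0% G and C and 1 match to each motif, the interferon core at bases -53 to -44 and the half-site at -21 to -16. The C7orf49 stretch had 75.0% G and C and no match to either. Neither held the full palindrome (AGAACA, any 3 bases, TGTTCT). Among 35114 promoters in the RefSeq table (GRCh38.p14), the 100 bases before the start held the half-site in 5.03%, the interferon core in 1.202% and the palindrome in 1 promoter. RefSeq lists a second start for C7orf49, whose 250 upstream bases (GRCh38.p14, chr7:135169475-135169724) held 1 half-site, at -212 to -207, against 12.4% of promoters at that length. These matches describe the sequence and say nothing about binding in these cells.

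TMEM140 took more counts than C7orf49, though the strand these reads came from is uncertain. TMEM140 had a mean of 1405 counts per library (903 to 1971), the 56th highest mean of 23861 genes with counts. C7orf49 had a mean of 259 counts (98 to 578), the 369th. Per kb of exon the mean counts were 607 for TMEM140, 286 for RP11-134L10.1 and 48.7 for C7orf49. Both members passed the filter on low counts, with 3985 genes in all.

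In the parental line given vehicle, C7orf49 stood at 494, 481, 515 and 525 CPM (the count relative to the library total, with totals scaled by TMM) in replicates 1 to 4. The parental tamoxifen libraries held 649, 603, 627 and 638 CPM of C7orf49. All parental tamoxifen libraries therefore lay above all parental vehicle libraries.

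In the neutral line, C7orf49 had 191, 194, 212 and 190.3 CPM under vehicle. Under tamoxifen the neutral libraries held 615, 667, 586 and 574 CPM. The treatments did not overlap, and the neutral vehicle libraries lay below every parental library.

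C7orf49 in the repressive line had 193, 231, 188 and 227 CPM under vehicle. Its repressive tamoxifen libraries held 499, 429.9, 502 and 523 CPM. These lay above the repressive vehicle libraries and around the parental vehicle level.

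The activating line had 183, 205, 194 and 204 CPM of C7orf49 under vehicle. Its tamoxifen libraries held 355, 322, 323 and 378 CPM of C7orf49. They lay above the vehicle libraries of the same line but below every parental library.

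In the order of the group means, C7orf49 stood at 629 ± 19.7 CPM in parental tamoxifen, 611 ± 41.1 in neutral tamoxifen, 504 ± 19.8 in parental vehicle, 489 ± 40.5 in repressive tamoxifen, 344 ± 27.3 in activating tamoxifen, 209.7 ± 22.4 in repressive vehicle, 197 ± 10.11 in neutral vehicle and 196 ± 10.3 in activating vehicle (SD, n = 4 each). The parental and neutral tamoxifen libraries overlapped, the parental vehicle and repressive tamoxifen libraries overlapped, and the 3 construct vehicle groups overlapped. The other neighbours in that order did not overlap.

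**Figure D2:**
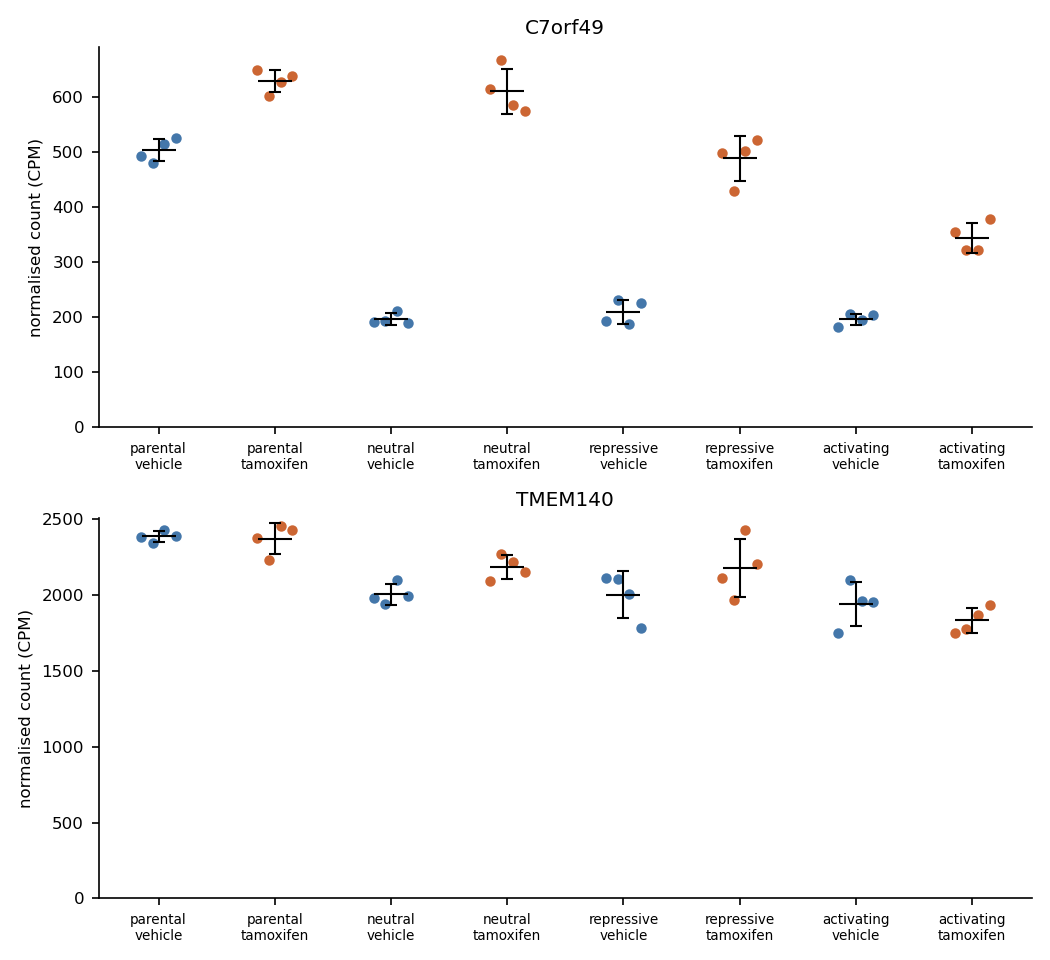
Normalised count (CPM) of C7orf49 (upper panel) and TMEM140 (lower panel) in each of the 32 libraries, by line and treatment, with the mean and SD of each group in black. C7orf49 lies between 183 and 231 CPM in the 12 vehicle libraries of construct lines and at 322 CPM or above elsewhere, whereas TMEM140 lies between 1749 and 2456 CPM throughout.

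TMEM140 in the parental line had 2386, 2343, 2431 and 2389 CPM under vehicle. Under tamoxifen the parental libraries held 2375, 2229, 2456 and 2426 CPM of TMEM140. The treatments overlapped.

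In the neutral line TMEM140 stood at 1983, 1941, 2100.4 and 1993 CPM under vehicle. The neutral tamoxifen libraries had 2096, 2272, 2218 and 2154.5 CPM. Here the highest vehicle library passed the lowest tamoxifen library.

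The repressive line had 2115, 2103, 2007 and 1781 CPM of TMEM140 under vehicle. Its tamoxifen libraries had 2114, 1967, 2426 and 2205 CPM. The spread within these groups was wider than in the parental line.

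The activating line had 1749, 2099, 1960 and 1957 CPM of TMEM140 under vehicle. Under tamoxifen it had 1752, 1779, 1868 and 1934 CPM. The group means of TMEM140 thus ran from 2387 ± 35.9 CPM in parental vehicle, through 2371 ± 101 in parental tamoxifen, 2185 ± 76.5 in neutral tamoxifen, 2178 ± 192 in repressive tamoxifen, 2005 ± 67.7 in neutral vehicle, 2002 ± 155 in repressive vehicle and 1941 ± 145 in activating vehicle, to 1833 ± 83.3 in activating tamoxifen (SD, n = 4 each). Every pair of neighbours in that order overlapped.

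The contrasts that chose the genes are given as descriptions without a test. The log2 fold change of C7orf49 from vehicle to tamoxifen was 1.62 (SE 0.0845) in the neutral line, 1.17 (SE 0.0917) in the repressive line and 0.94 (SE 0.102) in the activating line. Against the parental line, both under vehicle, its log2 fold change was -1.40 (SE 0.0993) in the neutral, -1.26 (SE 0.105) in the repressive and -1.36 (SE 0.103) in the activating line. For TMEM140 the same 6 values were 0.11, 0.073 and 0.044 from vehicle to tamoxifen (neutral, repressive, activating), with overlapping libraries, and -0.29, -0.25 and -0.30 against the parental line, without overlap. The sign of the activating value depended on the scaling. The log2 CPM difference of TMEM140 was -0.080, with all 32 libraries scaled together on all genes with counts rather than on the tested genes. On that scale the activating difference of C7orf49 was 0.80. As background, edgeR called 4.72%, 17.8% and 44.8% of the 3985 tested genes between treatments in the neutral, repressive and activating lines (adjusted p under 0.05, either direction), and 9.74%, 10.8% and 8.08% between the neutral, repressive or activating line and the parental line under vehicle. The 3 comparisons with parental vehicle share the same 4 parental libraries. When the counts of both genes were summed in each library, the log2 fold changes were 0.33, 0.22 and 0.15 between treatments and -0.44, -0.39 and -0.47 against the parental line, since TMEM140 supplies most of the sum.

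The first comparison not itself used in the selection was tamoxifen against vehicle in the parental line. This line carries no construct and so gives the background of the drug. Its vehicle libraries entered the selection as the reference. C7orf49 was higher under tamoxifen in 4 of 4 libraries, with a log2 fold change of 0.28 (SE 0.0854), but this failed the correction over all genes (edgeR, unadjusted p = 0.00311, adjusted p = 0.442). The exact two-sided permutation test of log2 CPM gave p = 0.0286, which is as low as groups of 4 and 4 can reach, with an adjusted value of 0.0667 over 7 comparisons. TMEM140 had a log2 fold change of -0.054 (SE 0.0714, edgeR adjusted p = 0.883). In this comparison edgeR called 0 of 3985 genes, 0%, with 306 genes at an unadjusted p under 0.05, and DESeq2 called 0 as well.

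Between lines under tamoxifen, C7orf49 was lower in the repressive and the activating line than in the parental line. The log2 fold change of C7orf49 against parental tamoxifen was -0.36 (SE 0.0750, edgeR adjusted p = 0.000541) in the repressive line, where 16.1% of tested genes were called, and -0.73 (SE 0.0861, edgeR adjusted p = 2.96e-09) in the activating line, where 44% were called. In both, 4 of 4 libraries lay below all parental tamoxifen libraries. In the neutral line it was -0.031 (SE 0.0750, edgeR adjusted p = 0.876), with overlapping libraries and 6.88% of tested genes called. The 3 comparisons share the parental tamoxifen libraries. Their construct tamoxifen libraries entered the selection, which asked for a return under tamoxifen, so these p-values are not independent of it.

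Among the 7 comparisons tested, TMEM140 was called only in activating against parental tamoxifen, where it was lower. Within the activating line its vehicle and tamoxifen libraries overlapped. Its log2 fold change against parental tamoxifen was -0.24 (SE 0.0645, edgeR adjusted p = 0.00268), with 4 of 4 activating libraries below all parental ones and the same 44% of tested genes called. On the log2 CPM scale, where the difference was -0.37, the exact permutation p was 0.0286, or 0.2 after adjustment over 7 comparisons. In the neutral line the log2 fold change of TMEM140 was -0.11 (SE 0.0555, adjusted p = 0.291) and in the repressive line -0.12 (SE 0.0596, adjusted p = 0.19, both from edgeR). As for C7orf49, the construct tamoxifen libraries entered the selection.

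Under vehicle, no difference between construct lines was detected at either gene. The log2 fold change of C7orf49 was 0.12 (SE 0.105) between the repressive and neutral lines, 0.0050 (SE 0.104) between the activating and neutral lines and -0.14 (SE 0.111) between the activating and repressive lines, with edgeR adjusted p-values of 0.681, 0.994 and 0.999. For TMEM140 the same 3 values were 0.022 (SE 0.0602), -0.038 (SE 0.0616) and -0.082 (SE 0.0703), with edgeR adjusted p-values of 0.924, 0.881 and 0.999. Few genes differed in these comparisons, with 2.33%, 0.402% and 0.0251% of tested genes called. Low levels in all 3 lines were part of the selection, so likeness between them is not independent of it.

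The responses to tamoxifen, the log2 fold changes within a line, are set side by side as a description, since their differences are built from the contrasts that chose the genes. Fitted as an interaction over 16 libraries, the response of C7orf49 was smaller in the activating than in the neutral line, by -0.71 on the log2 scale (SE 0.118). The difference was -0.46 (SE 0.122) for the repressive against the neutral line and -0.23 (SE 0.133) for the activating against the repressive line. For TMEM140 the differences between responses were -0.041 (SE 0.0840) for repressive against neutral, -0.094 (SE 0.0777) for activating against neutral and -0.033 (SE 0.0975) for activating against repressive, and each changed sign under another scaling. As background, edgeR called 3.39%, 33.4% and 35.9% of tested genes for repressive against neutral, activating against neutral and activating against repressive responses, and nothing is read from these shares about the pair.

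**Figure D3:**
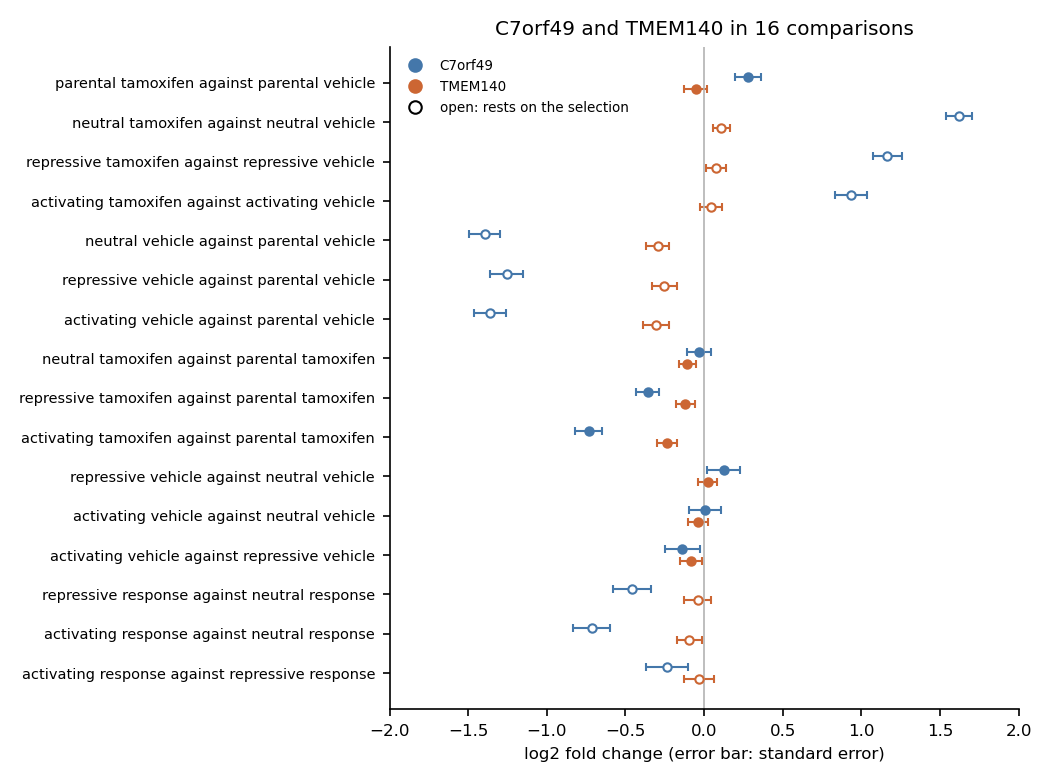
Log2 fold change of C7orf49 (blue) and TMEM140 (orange) in 16 comparisons, with error bars of 1 standard error; open circles mark the 6 contrasts that chose the genes and the 3 response differences built from them. C7orf49 ranges from -1.40 to 1.62 while TMEM140 stays between -0.30 and 0.11.

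The share of C7orf49 in the summed counts of the pair does not depend on how libraries are scaled, and it broadly followed the level of C7orf49. The order of group means was not the same throughout. The mean share was 18.3% in repressive tamoxifen against 17.4% in parental vehicle, and 21.8% in neutral against 21.0% in parental tamoxifen. In each case the mean C7orf49 CPM was slightly lower in the group named first. It was 17.0 to 18.0% in parental vehicle libraries and 20.3 to 21.5% in parental tamoxifen libraries. In the construct lines under vehicle the share was 8.71 to 9.16% (neutral), 8.38 to 11.3% (repressive) and 8.90 to 9.46% (activating). Under tamoxifen it was 20.9 to 22.7%, 17.2 to 19.2% and 14.7 to 16.8% in the same order.

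Under tamoxifen the mean share was lower in the repressive line (18.3% ± 0.971) and in the activating line (15.8% ± 0.956) than in the parental line (21.0% ± 0.508; SD, n = 4 each). The differences from the parental line were -2.63 and -5.17 percentage points with no overlap, and each gave an exact two-sided permutation p of 0.0286, the smallest possible, and 0.0667 after adjustment over 7 comparisons. The neutral line stood 0.858 points higher (exact permutation p = 0.229, adjusted 0.32). All construct libraries whose shares are compared here entered the selection, so p-values on them are not independent of it. Within the parental line the share rose by 3.56 points from vehicle to tamoxifen without overlap, also at an exact permutation p of 0.0286 and an adjusted 0.0667. The 3 pairs of construct lines under vehicle differed by 0.592, 0.264 and -0.328 points (repressive against neutral, activating against neutral, activating against repressive), with exact permutation p-values of 0.486, 0.2 and 0.743.

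**Figure D4:**
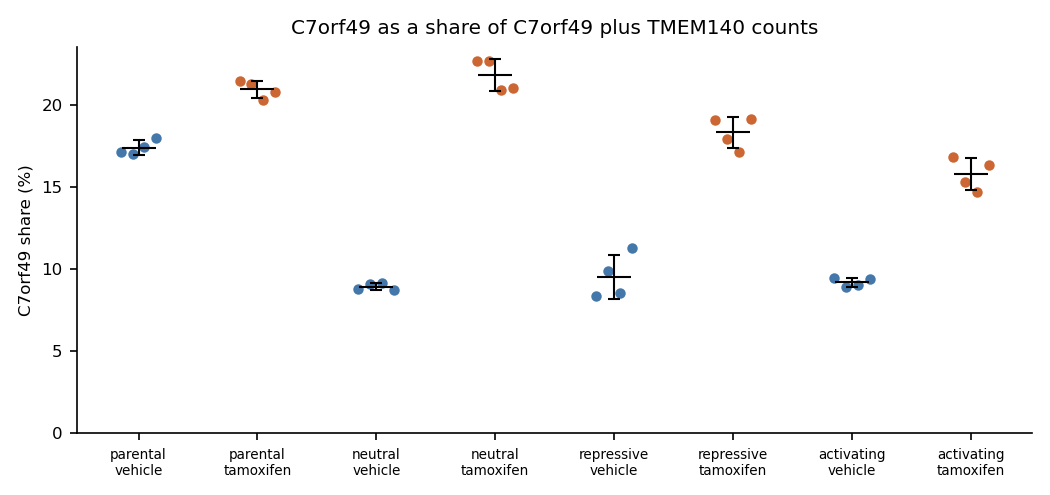
C7orf49 as a percentage of the C7orf49 plus TMEM140 counts in each library, by line and treatment, with the group mean and SD in black. The 12 vehicle libraries of construct lines lie between 8.38 and 11.3% and the other 20 between 14.7 and 22.7%.

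RP11-134L10.1, which faces C7orf49 exons and not those of TMEM140, had a narrower range of group means than C7orf49, and the difference between the genes was not tested. Its group means were 523 and 545 CPM in the parental line (vehicle, then tamoxifen), 455 and 529 in the neutral, 485 and 506 in the repressive and 434 and 448 in the activating line. It was called in none of the 16 comparisons as fitted here, although scaling on genes with no opposite exon called it in activating tamoxifen against vehicle and in the neutral and activating against the parental line under vehicle, the latter pair also with all 32 libraries in 1 fit. Its log2 fold change was 0.20 from vehicle to tamoxifen in the neutral line (SE 0.0771, edgeR adjusted p = 0.167) and -0.24 between the neutral and parental lines under vehicle (SE 0.0923, edgeR adjusted p = 0.0989). Against the parental line under vehicle it was -0.27 in the activating line (SE 0.0988, edgeR adjusted p = 0.103) and -0.11 in the repressive line (SE 0.0929, edgeR adjusted p = 0.549). From vehicle to tamoxifen it was 0.17 in the activating and 0.0089 in the repressive line.

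Within 500000 bases of the pair the table held 17 other genes, of which 14 had a mean under 1 count, AGBL3 had a mean of 4.66 counts, and 2, RP11-134L10.1 and CALD1, were tested. CALD1, which encodes the actin-binding protein caldesmon, was called in the activating line only among the 7 comparisons run on the lists. It stood at 39.9 ± 8.18 CPM under vehicle and 91.7 ± 9.03 under tamoxifen in that line (SD, n = 4), a log2 fold change of 1.32 (SE 0.192, edgeR adjusted p = 4.95e-06), and its response exceeded the neutral one by 1.40 (SE 0.278, edgeR adjusted p = 0.000203). In the other 3 lines its treatment log2 fold changes were -0.0070, -0.11 and 0.11 (parental, neutral, repressive). CALD1 was higher under tamoxifen in the line where C7orf49 had its lowest tamoxifen level. In that line 44.8% of all tested genes were called between treatments, and a link between the 2 genes was not tested.

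Few genes of the pathways of the pair carried enough counts for a test, with means of 0.844 for B2M and 5.84 for XRCC6. Because the strand of the counts is uncertain, low counts here do not show that a gene was barely expressed. Of 63 other interferon response genes in the table, 47 had a mean under 1 count, 11 were at 0 in all libraries and 3 were tested, among them TRIM14, an adaptor of antiviral signalling, and PSME1, a subunit of the proteasome activator. TMEM140 itself, left out of that list, had a mean of 1405 counts. None of the 3 was called between treatments in the parental, neutral or repressive line, where 0%, 4.72% and 17.8% of all tested genes were called, and TRIM14 alone rose in the activating line, by 0.48 on the log2 scale (SE 0.103, edgeR adjusted p = 0.000483), where 44.8% of all tested genes were called.

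Of 23 genes opposite an exon of an interferon response gene, 3 were tested. Of these, 1 was lower under vehicle in each of the neutral and repressive lines than in the parental line (9.74% and 10.8% of all tested genes called), 1 was higher with tamoxifen in the repressive line (17.8% called), and 1 rose and 2 fell in the activating line (44.8% called). TAPSAR1, opposite PSMB8 and TAP1, was lower under vehicle than in the parental line in the neutral line (log2 fold change -0.43, edgeR adjusted p = 0.036) and in the repressive line (-0.63, edgeR adjusted p = 0.00206), and had -0.33 in the activating line (edgeR adjusted p = 0.128). With tamoxifen TAPSAR1 rose in the activating line by 1.65 (SE 0.112, edgeR adjusted p = 1.72e-11). NANS, a sialic acid synthase gene opposite TRIM14, fell by 0.98 in that line (edgeR adjusted p = 0.00472). The third tested gene, opposite TRIM25, fell by 0.95 there and rose by 0.33 in the repressive line (edgeR adjusted p-values 1.02e-05 and 0.0189).

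Of 26 other genes of non-homologous end joining, 16 had a mean under 1 count and 4 were tested, none of them called between treatments in the parental, neutral or repressive line (0%, 4.72% and 17.8% of all tested genes called) or between a construct line and the parental line under vehicle (8.08 to 10.8% called). In the activating line tamoxifen raised FAM35A, a shieldin subunit also named SHLD2, by 2.11 (SE 0.187, edgeR adjusted p = 2.28e-05) and TP53BP1, a chromatin-bound promoter of end joining, by 0.56 (SE 0.225, edgeR adjusted p = 0.0472). DCLRE1C, the nuclease Artemis, fell by 0.92 (SE 0.247, edgeR adjusted p = 0.00409), and ATM, the kinase that signals DNA breaks, had 0.0061 (edgeR adjusted p = 0.992). So 2 rose and 1 fell of 4, with a median log2 fold change of 0.28, in a comparison where 44.8% of all tested genes were called. FAM35A has pseudogene copies that could share its reads, so its count is uncertain. It also has an exon opposite GLUD1, with mean counts of 336 for FAM35A and 11.6 for GLUD1. TP53BP1, DCLRE1C and ATM face exons of other genes too, so the strand behind all these counts is uncertain.

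Of 16 genes opposite an end joining gene, 9 were tested, and 2 rose and 1 fell in the activating line, where 44.8% of all tested genes were called. In the repressive line 1 fell with tamoxifen (17.8% called), and under vehicle 1 was higher than in the parental line in each of the repressive and activating lines (10.8% and 8.08% called). In the activating line TUBGCP4, a gamma-tubulin complex gene opposite TP53BP1, rose by 0.56 (edgeR adjusted p = 0.00993) and the pseudogene ASS1P12, opposite APTX, fell by 1.09 (edgeR adjusted p = 0.00646).

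Across the 32 libraries, the 5 tested genes most like C7orf49 in log2 CPM were PINK1-AS (Pearson r = 0.845), AC010336.1 (0.832), RP1-56K13.3 (0.819), DENND1C (0.819) and C5orf45 (0.803). The libraries share groups, so these coefficients describe group patterns. Each of the 5 has an exon opposite another gene: PINK1-AS opposite PINK1, a mitochondrial kinase gene, AC010336.1 opposite LRRC8E, RP1-56K13.3 opposite LASP1, DENND1C opposite CRB3, and C5orf45 opposite SQSTM1, which encodes the autophagy receptor p62. That holds for 76.5% of the 3839 tested genes found in the annotation.

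PINK1-AS went from 826 to 942 CPM in the parental line (vehicle, then tamoxifen), from 700 to 1050 in the neutral, from 622 to 1041 in the repressive and from 634 to 952 in the activating line. C5orf45 went from 4840 to 5995, from 3915 to 5249, from 3379 to 5338 and from 3998 to 6015 CPM in the same order. Both were lowest in the construct vehicle groups, as C7orf49 was, which follows from picking them for their likeness to it in these libraries. In the activating line under tamoxifen they stood above parental vehicle, where C7orf49 stood below it.

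The 5 genes least like C7orf49 were CICP14 (r = -0.869), CARHSP1 (-0.836), RPL23AP64 (-0.830, with 0 to 14 counts per library), ZNF814 (-0.829) and AP1G2 (-0.802). AP1G2, a subunit of a clathrin adaptor, stood at 149 and 163 CPM in the parental line (vehicle, then tamoxifen), 244 and 146 in the neutral, 300.1 and 126 in the repressive and 295 and 134 in the activating line. CICP14, a pseudogene, stood at 103 and 119, 209 and 124, 232 and 125, and 239 and 149 CPM in the same order. Both were highest in the 3 construct vehicle groups, where C7orf49 was lowest, which again follows from how they were picked.

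TMEM140 correlated with C7orf49 at r = 0.665 over the 32 libraries, the 25th highest among tested genes, and RP11-134L10.1 at 0.687, the 21st highest. TMEM140 and RP11-134L10.1 correlated at 0.711 and C7orf49 and CALD1 at 0.109. These points share depth and group, and no test was made.

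**Figure D5:**
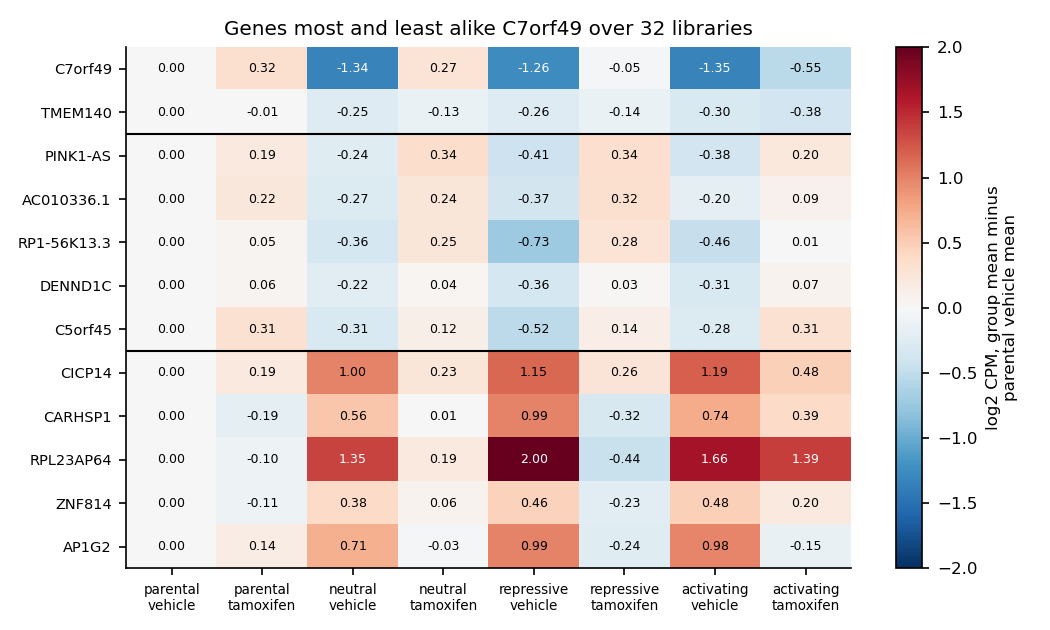
Group means of log2 CPM relative to the parental vehicle mean (colour and printed values) for C7orf49 and TMEM140, the 5 tested genes most like C7orf49 (middle block) and the 5 least like it (lower block). C7orf49 has -1.34, -1.26 and -1.35 in the neutral, repressive and activating vehicle groups, where the most alike genes have -0.20 to -0.73.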

How the data were processed

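The authors deposited estimated counts per gene, made with nf-core/rnaseq and salmon 1.9.0 on GRCh37 from a stranded mRNA kit. The annotation release is not given in the sources used here. The submitters' processing notes also name DESeq2 1.28.0. All 32 columns matched a sample by name.

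The estimated counts were rounded. The filterByExpr filter of edgeR, given all 8 groups, left 3985 genes, and libraries were scaled by TMM. Tests used edgeR 4.0.16 (glmQLFit and glmQLFTest, robust) in R 4.3.3 with only the groups compared, and Benjamini-Hochberg adjustment over all tested genes at 0.05. DESeq2 1.42.0, other scalings, no filter, a replicate block, all libraries in 1 fit and leaving out each library were alternatives. In simulated data for neutral tamoxifen against vehicle, 158 of 200 changed genes were recovered among 3985, with 12 false calls. CPM are from all 32 libraries, scaled by TMM on all 23861 genes with counts rather than on the tested genes, and log2 CPM used a prior count of 2. Log2 CPM differences can depart from the fitted ones. For activating against parental tamoxifen they were -0.87 for C7orf49 and -0.37 for TMEM140. Gene positions come from GENCODE lifted to GRCh37, which held 96.1% of the genes.

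The members and lists were chosen with earlier results of these data known. The rule for other named genes took tested neighbours, at most 6 tested genes per list by mean count, and the 5 genes with the highest and lowest correlation with C7orf49. The share of C7orf49 in the pair and the alternatives for TMEM140 were added after seeing the data. Replicates are described as biological, and no pair of them agreed within counting noise. Some genes of the lists are not reported here by name.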

Additional observations from a re-analysis of the deposited data

Results flagged for a closer look

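C7orf49 in neutral vehicle replicate 3 stood at 211.8 CPM, apart from the other 3 libraries of its group at 190.3 to 194 CPM. This was 1 of 32 sets of libraries and measures examined, and chance sets such a library apart in about 1 in 20 groups. The differences between the responses of C7orf49 in the repressive and neutral lines (-0.4571 on the log2 scale, edgeR interaction, adjusted p = 0.0293) and in the activating and neutral lines (-0.7137, adjusted p = 1.79e-05) passed the threshold, but they are built from the contrasts that chose the gene, so these p-values support nothing. The first of them was also lost with DESeq2 (adjusted p = 0.0515) and in 7 of 16 fits that left out 1 library.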

How the results depend on the processing

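The replicate numbers did not pair the samples: in 0 of 13 comparisons did every same-numbered pair correlate above 0.1 (range -0.379 to 0.306). With the numbers as a replicate block, TMEM140 in repressive against parental tamoxifen had -0.12 at an edgeR adjusted p of 0.0352, and no other call on either gene changed. Of the alternatives, 593 values were stable in direction and call, 28 moved, 3 passed the threshold, 11 lost it and 25 changed sign. Exact permutation results were judged here at their unadjusted p. Adjusted over 7 comparisons, the permutation p was 0.0667 for C7orf49 in repressive and in activating against parental tamoxifen. For TMEM140 in activating against parental tamoxifen it was 0.2. These miss the threshold. All sign changes were of differences past no threshold in either fit.

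C7orf49 in the parental line passed 0.05 only at the unadjusted exact permutation p of 0.0286, by log2 CPM (0.32) and by its share (3.56 points), and at 0.0667 after adjustment it did not. C7orf49 changed sign for neutral against parental tamoxifen by its share (0.858 points) and for activating against neutral vehicle with TMM from genes with no opposite-strand exon (-0.0073), no filter (-0.026), all 32 libraries in 1 fit (-0.0042), summed counts (-0.034) and exact permutation (-0.0028). TMEM140 changed sign for repressive against neutral vehicle with no filter (-0.0018) and exact permutation (-0.0048). Its response differences changed sign with that TMM (0.016, 0.092 and 0.071 for repressive against neutral, activating against neutral and activating against repressive), the first with no filter (0.0062) and the last in 1 fit (0.0027). Without 1 replicate, the ranges that crossed 0 were -0.082 to 0.0026 for C7orf49 in neutral against parental tamoxifen, -0.017 to 0.042 for C7orf49 in activating against neutral vehicle, and for TMEM140 -0.0051 to 0.074 in repressive against neutral vehicle, -0.076 to 0.011 in activating against neutral vehicle and -0.083 to 0.041 in activating against repressive responses. Summed counts gave 0.33, 0.22 and 0.15 between treatments and -0.44, -0.39 and -0.47 against the parental line (neutral, repressive, activating). That TMM shifted the median of all genes by 0.15 for activating tamoxifen against vehicle, by -0.11, -0.11 and -0.13 for the vehicle lines against the parental line and by 0.19 and 0.11 for the activating response against the neutral and repressive ones. With it C7orf49 had 1.09 between activating treatments and -1.51 and -1.49 in the neutral and activating against the parental line.

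The repressive against neutral response of C7orf49 was lost with DESeq2 (-0.45, adjusted p = 0.0515), that TMM (-0.40, 0.143), no low-count filter (-0.41, 0.326) and summed counts (-0.11, 0.597). Without 1 replicate it ranged from -0.51 to -0.40, with 7 of 16 exclusions above the threshold. The cause was not tested.

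Small list counts also moved. Partners of interferon response genes called went from 1 to 0 for repressive treatments with DESeq2, no filter or all 32 libraries in 1 fit, from 1 to 0 for neutral against parental vehicle with DESeq2, no filter or the replicate block, and from 0 to 1 for activating against parental vehicle with that TMM or 1 fit. Interferon response genes called went from 1 to 2 for activating treatments without the filter. With the replicate block, end joining genes went from 0 to 1 and their partners from 1 to 2 for repressive treatments, and the partners from 1 to 0 for activating against parental vehicle. Those partners went from 0 to 1 for neutral against parental vehicle with DESeq2 or 1 fit. Neighbours called went from 1 to 2 for activating treatments with that TMM, and from 0 to 1 for neutral and for activating against parental vehicle with that TMM or 1 fit. C7orf49 rested on 98 to 578 counts per library, which limits the smallest difference that could be detected.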
